A study of Mus musculus with 2 samples.

Results

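The antiviral genes described here are 43 mouse genes whose products make up the cell's inducible defence against viruses: the ISG15 conjugation system, the IFIT, IFITM, OAS and Mx effectors, the RIG-I-like RNA sensors, the antiviral PARP proteins and a set of restriction factors. The genes were chosen by their known roles with earlier results of these same 2 arrays in view, so that the differences below were part of what chose them and are given as a description with no test. All 43 had at least 1 probe on the array, which carries 34650 gene names in all. A probe of 41 of them was well above background on at least 1 array, as was one of 25851 gene names in all. Where a gene had several probes, the brightest one, by the measured signal, stands for it.

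RNA was measured on 2 one-colour Agilent arrays, 1 for each group. Both groups were grown from E14Tg2A, a single mouse embryonic stem (ES) cell line of strain 129/Ola, and both were kept in the same defined medium with FGF2 at 12 ng/mL and Activin A at 20 ng/mL. EpiSC are the epiblast stem cells made from ES cells directly, and ELA-EpiSC are cells made likewise out of Epiblast-Like Aggregates (ELA), the clusters that ES cells form once LIF and serum are withdrawn. Each array held RNA pooled from 3 sets of experiments, so the spread between cultures cannot be seen, no p-value was possible, and cells of different kinds within a culture cannot be told apart from more RNA per cell. The sample titles set the groups, although the source field of the EpiSC sample speaks of an Argonaute precipitate of undifferentiated cells. The defining epiblast markers were present: all 6 tested, including Pou5f1, Sox2, Fgf5 and Otx2, were detected on both arrays. None differed by 1 log2 unit with its brightest probe, and the widest was Dnmt3b at -0.84, whose other probes gave -0.87 and -1.11.

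Virus RNA in the cytoplasm is read by RIG-I and MDA5, which signal through the adaptor MAVS to switch on interferon genes. Secreted type I interferon then binds its receptor, and the kinases JAK1 and TYK2 pass the signal to a factor that contains STAT2 and IRF9 and binds the interferon-stimulated response element (ISRE) of many genes. Pluripotent stem cells are known for a weak interferon response and for expressing part of this antiviral set without infection.

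The ISRE was searched in the promoters because it is a sequence through which type I interferon reaches many genes. The motif was spelled GAAANNGAAA, on both strands, in the 250 bases before the start site of RefSeq promoters of build GRCm38.p6. A promoter was matched for 33 of the 43 genes, all but Usp18, Oas1b, Oas2, Mx1, Mx2, Parp9, Parp10, Parp14, Zbp1 and Dhx58. The motif stood in the promoter of 10 genes, or 30.3% of the 33, against 3.48% of 17492 protein-coding genes and 2.98% of all 32851 promoters. The promoters of 5 of them are shown, since they belong to genes that lay on opposite sides of the comparison. Each line gives 80 bases of the coding strand from 5′ to 3′, with the motif in capitals. A motif of the other strand reads TTTCNNTTTC on this one, and overlapping matches form 1 run in Isg15.
Isg15 (chr4:156200835-156200914, minus strand): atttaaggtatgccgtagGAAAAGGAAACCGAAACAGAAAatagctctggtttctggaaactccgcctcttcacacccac
Ifit1 (chr19:34640774-34640853, plus strand): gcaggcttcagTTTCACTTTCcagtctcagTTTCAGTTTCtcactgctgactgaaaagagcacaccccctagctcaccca
Ifit3 (chr19:34583377-34583456, plus strand): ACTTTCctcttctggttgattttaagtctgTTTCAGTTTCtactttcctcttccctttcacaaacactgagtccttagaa
Rsad2 (chr12:26456523-26456602, minus strand): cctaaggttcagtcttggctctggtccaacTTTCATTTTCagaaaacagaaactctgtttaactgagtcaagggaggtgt
Lgals9 (chr11:78984930-78985009, minus strand): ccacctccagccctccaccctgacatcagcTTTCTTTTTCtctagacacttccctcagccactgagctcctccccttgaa

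The match nearest the start site began 66 bases before it in Isg15, 85 in Ifit1, 122 in Ifit3, 120 in Rsad2 and 55 in Lgals9. Isg15 held 3 matches and Ifit1 and Ifit3 held 2 each, of which the farther one of Ifit3 is cut at the left edge of its line. Ifitm2, Oas1a, Oas1c, Oas3 and Bst2 were the other genes with a match. The GAS motif, the gamma-activated site, spelled TTCNNNGAA, stood in the same stretch in 4 of the 33 genes (Bst2, Eif2ak2, Ifit2 and Oas1a), or 12.1%, against 7.65% of protein-coding genes, and overlapped an ISRE match in 1 place, in Bst2.

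Of the 41 detected genes, 38 were detected on both arrays, 3 (Ifit1, Ifit3 and Ifi44) on the ELA-EpiSC array alone and none on the EpiSC array alone. Mx1 and Oasl1 were well above background on neither. Ifi44, just inside this limit, read 41.8 raw units over a background of 23 in ELA-EpiSC, and Oasl1, just outside it, read 40.4 over 25. Values are log2 intensities after background correction and quantile normalization, and differences are ELA-EpiSC minus EpiSC on the log2 scale. Where a pair of levels is given, that of EpiSC comes first. A gene was counted as past the limit where its difference reached 1 and its mean level over both arrays reached 7.5, which 28 of the 41 did. Of these 28, 13 were higher in ELA-EpiSC past the limit, or 46.4%, and none was higher in EpiSC. Over all 16649 genes at that level, 4.54% were higher in ELA-EpiSC and 4.46% were higher in EpiSC. Because the choice of genes drew on this same comparison, nothing is read from the gap between these shares.

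The 13 genes were Oasl2, Isg15, Parp14, Parp12, Parp9, Ifitm1, Rnf213, Ifi35, Mx2, Dtx3l, Parp10, Adar and Ddx58. Just inside the limit stood Ddx58 at 1.11, and just outside it Ifitm3 at 0.95 and Eif2ak2 at 0.94. The median difference of the 41 genes was 0.71, that of all detected genes was -0.01, and 32 of the 41 lay above 0. The technical spread of a difference, from 312 probes printed 10 times on each array, was 0.10 (SD of the difference between spots at the same position on both arrays), and 3 of the 41 genes differed by less. Spots of 1 probe within an array had median SDs of 0.13 in EpiSC and 0.16 in ELA-EpiSC. These are errors of spots and not of cultures.

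**Figure D1:**
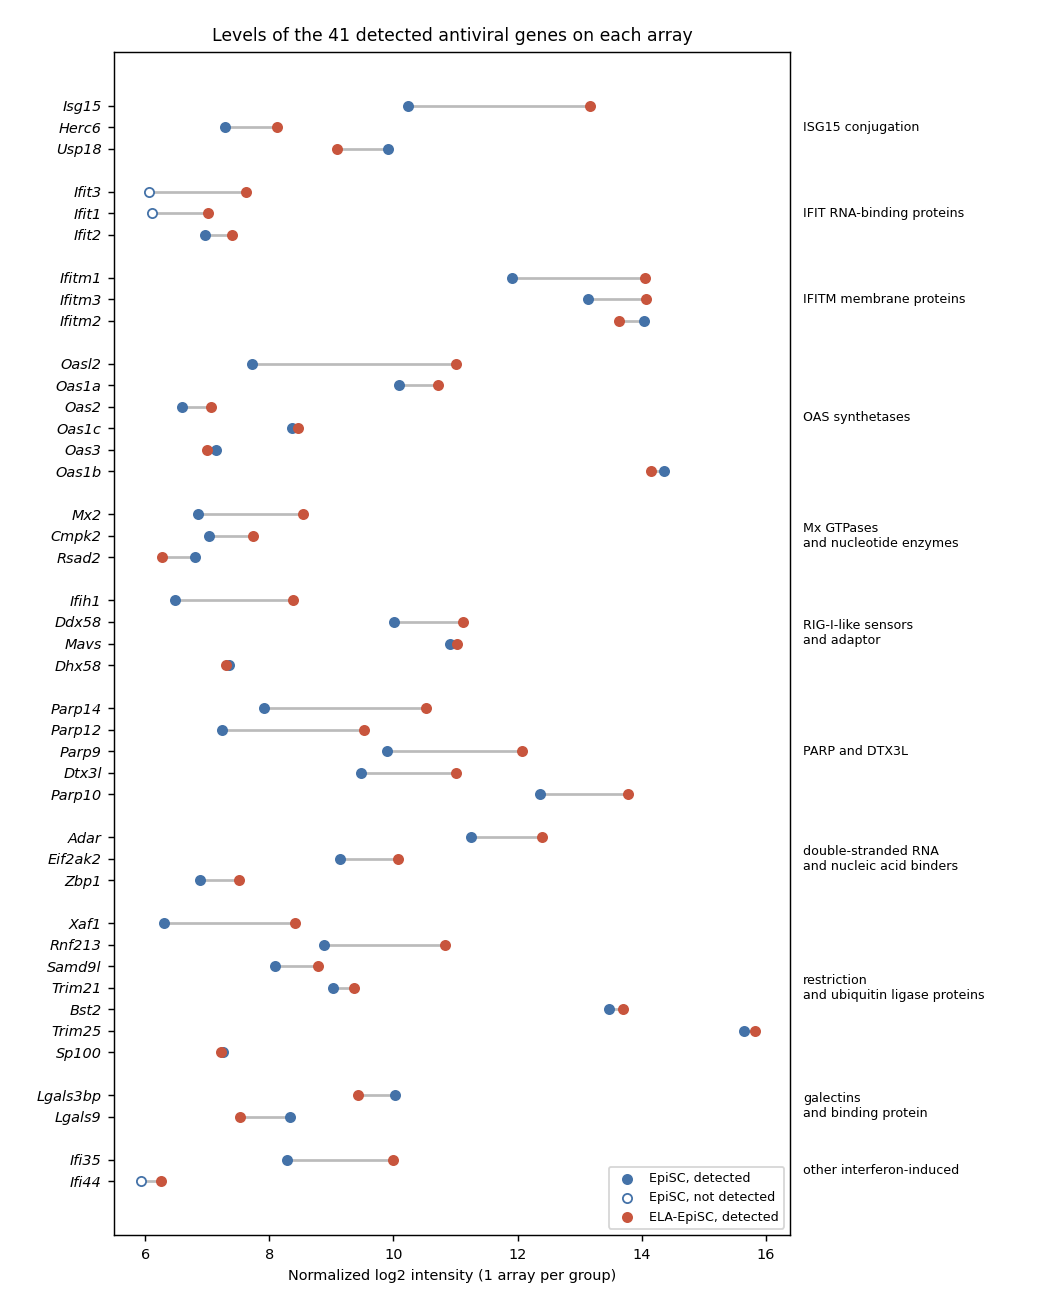
Normalized log2 intensity (x axis) of the 41 detected antiviral genes on the EpiSC array (blue) and the ELA-EpiSC array (red), grouped by role. Filled points were well above background and open points were not. All 5 genes of the PARP and DTX3L group sat to the right in ELA-EpiSC, whereas Usp18, Rsad2 and Lgals9 sat to the left.

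In the ISG15 system, Isg15 and its removing enzyme stood on opposite sides. Isg15, the ubiquitin-like modifier that is joined to newly made proteins, had a level of 10.24 in EpiSC against 13.16 in ELA-EpiSC, a log2 difference of 2.92 or 7.58-fold. In raw spot brightness that was 1047 against 9942 units over a local background of 24 and 23. A second Isg15 probe differed by 2.54. Usp18, the protease that takes ISG15 off again and also damps the interferon receptor, had 9.92 in EpiSC against 9.09 in ELA-EpiSC, a log2 difference of -0.83. The value of Usp18 ran from -0.98 to -0.15 over 15 ways of processing the arrays. Herc6, the main ligase for ISG15 in mouse, had 7.28 and 8.13, a difference of 0.85, and 0.66 with its other probe.

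IFIT1 binds viral RNA that lacks the host's cap methylation, and IFIT2 and IFIT3 are its relatives and partners. Ifit3 was not detected in EpiSC (6.06) and was in ELA-EpiSC (7.62), at least 2.95-fold higher on these values. Ifit1 likewise had 6.10 and 7.02, at least 1.89-fold higher in ELA-EpiSC on the same scale. Ifit2 was detected on both arrays, at 6.96 and 7.39. All 3 lay below the mean level of 7.5, where the added offset of 50 units compresses differences. Without that offset the difference of Ifit3 was 3.15 and that of Ifit1 2.09, with the processed signal they were 4.62 and 2.93, and with scaling to the 75th percentile 1.32 and 0.64, under the bounds just given, so that the size of their differences depends on the correction. The promoters of Ifit1 and Ifit3 printed above both hold the ISRE.

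The IFITM proteins sit in cell membranes and hinder the entry of enveloped viruses, and their 3 genes are neighbours on chromosome 7. Ifitm1 had 11.91 in EpiSC against 14.05 in ELA-EpiSC, a log2 difference of 2.15 or 4.43-fold. Its other probe, shifted by 1 base and so not independent, gave 2.17. Ifitm3 had 13.13 and 14.08, a difference of 0.95. The Ifitm3 probe was printed 10 times, and its spots ran from 13.01 to 13.24 (SD 0.08, n = 10) in EpiSC and from 13.99 to 14.15 (SD 0.06, n = 8 after flagged spots) in ELA-EpiSC, with no overlap. Ifitm2 had 14.04 and 13.63, a difference of -0.40 that became 0.21 when the arrays were scaled on their spike-in RNAs. The Ifitm2 probe is 95.0% identical in sequence to a probe on chromosome X with no gene name, and whether the pair share signal was not tested. The 3 neighbours thus differed among themselves by more than the spread of spots.

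The OAS enzymes make oligoadenylates that wake RNase L when they meet double-stranded RNA, and the OAS-like genes are their relatives. Oasl2, an OAS-like gene, had the largest difference of the 41, with 7.71 in EpiSC and 11.01 in ELA-EpiSC, 3.30 or 9.82-fold. In raw brightness it read 167 against 2233 units over backgrounds of 29 and 23. Its neighbour Oasl1 was above background on neither array. Of the OAS genes proper, Oas1a had 10.09 and 10.72, a difference of 0.63, and a second probe 1.6 kb away gave 1.08. The Oas1a probe shares 80% of its bases with the probe of Oas1f. Oas2 had 6.59 and 7.06.

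The remaining OAS genes hardly differed. Oas1b, the flavivirus resistance gene of mice, had 14.36 and 14.16, with probes at -0.20, 0.02 and 0.16, of which the first pair overlap and the first shares 85.0% of its bases with a probe of Tprkb, and was the only gene of 19 with several detected probes whose probes took opposite signs. Oas1c had 8.37 and 8.46. Oas3 had 7.14 and 7.0, a difference of -0.15 that became 0.36 under spike-in scaling, as that of Oas1b became 0.36. The OAS genes therefore split, with Oasl2 past the limit and Oas1b, Oas1c and Oas3 within 0.21 of 0 on these values.

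Mx2, a GTPase that acts on viruses of the cytoplasm, had 6.85 in EpiSC against 8.54 in ELA-EpiSC, a log2 difference of 1.69 or 3.23-fold. The mean level of Mx2 was close to the minimum of 7.5, and Mx2 fell under it and lost its place past the limit at offsets of 0 and 16, with no background correction, with the processed signal and at a minimum of 9. Its neighbour Mx1 read at 32.5 and 27.3 raw units over backgrounds of 28 and 26. Cmpk2, a mitochondrial nucleotide kinase, had 7.02 and 7.73, a difference of 0.71 and of 0.19 with its other probe. Rsad2, which encodes viperin, the enzyme that makes a chain-ending nucleotide, lies next to Cmpk2 on chromosome 12 and stood the other way, with 6.80 and 6.26, a difference of -0.54. Over the 15 alternatives that of Rsad2 ran from -1.95 to -0.11. Its promoter holds the ISRE printed above, as do those of Isg15 and Ifit1, which were higher in ELA-EpiSC.

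Among the sensors, the gene for RIG-I stood past the limit and that of its adaptor did not. Ddx58 (now Rigi), which senses RNA with a free triphosphate end, had 10.01 and 11.13, a difference of 1.11 or 2.17-fold. A second, dimmer probe 760 bases away gave 1.08. Ifih1, which encodes MDA5, the sensor of long double-stranded RNA, had 6.48 and 8.37, a difference of 1.89 at a mean level below 7.5, and its other probe gave 0.37. Dhx58 (LGP2), a sensor with no signalling domain of its own, had 7.34 and 7.30. The difference of Dhx58, -0.04, took the other sign with median or spike-in scaling. Mavs had 10.92 and 11.03, a difference of 0.12. Of the 3 sensor genes, 2 were higher in ELA-EpiSC by over 1 with the brightest probe, but only Ddx58 had the level to pass the limit. The adaptor lay near the spread of spots.

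The PARP group was the only role group in which all genes passed the limit, with the brightest probe of each. Parp9 forms a complex with the ubiquitin ligase DTX3L, and Parp10, Parp12 and Parp14 add single ADP-ribose units to proteins. The median of the 5 genes was 2.18. Parp14 had 7.91 and 10.52, a difference of 2.61 or 6.12-fold. Parp12 had 7.23 and 9.53, a difference of 2.30 or 4.92-fold. Parp9 had 9.90 and 12.07, a difference of 2.18 or 4.52-fold. These 3 had the widest gaps of the group. Dtx3l had 9.48 and 11.01, a difference of 1.53 or 2.89-fold. Parp10 had 12.36 and 13.77, a difference of 1.42 or 2.67-fold. Parp14, Dtx3l and Parp9 lie within 500 kb of each other on chromosome 16.

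Second probes gave smaller differences for 3 of these genes. The second probe of Parp9, 4.33 kb away (mm9 chr16:35968243-35968302), gave 0.85, that of Parp10 gave 0.68, and the 2 further probes of Dtx3l gave 0.43 and 0.30. All these were dim, with mean levels under 7.5. Without the offset the second probes gave 1.28 for Parp9, 1.32 for Parp10, and 0.99 and 0.57 for Dtx3l, in the same direction as the brightest ones.

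Of the proteins that bind double-stranded or Z-form nucleic acid, Adar edits adenosine to inosine and so marks RNA as the cell's own. Adar had 11.25 and 12.39, a difference of 1.15 or 2.21-fold, and 0.76 with a probe 1.89 kb away. Eif2ak2, which encodes PKR, the kinase that halts translation on double-stranded RNA, had 9.14 and 10.08, a difference of 0.94. Zbp1, a sensor of Z-nucleic acid that can trigger cell death, had 6.88 and 7.51, a difference of 0.63. All 3 lay higher in ELA-EpiSC in all 15 alternatives, from 0.46 (Zbp1, second probe) to 1.84 (Adar, spike-in scaling).

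The restriction factors and ubiquitin ligases were mixed. Rnf213, a very large ligase that coats microbes with ubiquitin, had 8.88 and 10.83, a difference of 1.95 or 3.85-fold. A dimmer Rnf213 probe lying 57.1 kb away (mm9 chr11:119291535-119291594) gave 0.18, and 0.32 without the offset, so the 2 probes did not match in size. Xaf1, an interferon-induced antagonist of the survival factor XIAP, had 6.31 and 8.42, a difference of 2.11 at a mean below 7.5, and 1.17 with its other probe. Samd9l, which restricts poxviruses, had 8.08 and 8.78, a difference of 0.69, and 0.82 with its other probe.

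The other restriction genes were close to level. Bst2 (tetherin), which holds budding virus at the cell surface, had 13.47 and 13.71. Trim21, the cytoplasmic antibody receptor, had 9.02 and 9.36. Trim25, the ligase that assists RIG-I, had 15.65 and 15.83, a difference of 0.19 that turned negative, to -0.21 at its lowest, in the processed signal and with scaling to the 75th percentile. Sp100, a nuclear body protein, had 7.25 and 7.21, a difference of -0.03 that also took the other sign with median or spike-in scaling. None of the probes of any member was saturated.

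The galectin genes were the role group in which both members lay higher in EpiSC, except under spike-in scaling, which turned Lgals3bp to 0.10. Lgals9, a galectin that acts on immune cells, had 8.33 in EpiSC against 7.52 in ELA-EpiSC, a log2 difference of -0.81. It passed the limit in EpiSC's favour without the offset and with the processed signal. Lgals3bp, a secreted galectin-binding glycoprotein, had 10.02 and 9.43, a difference of -0.58, and -0.52 with its other probe. Of the last pair, Ifi35, a partner of Nmi, had 8.29 and 10.00, a difference of 1.71 or 3.27-fold. Ifi44 was not detected in EpiSC (5.93) and had 6.24 in ELA-EpiSC, at least 1.25-fold higher, a difference that was -0.03 when arrays were scaled to their 75th percentile.

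**Figure D2:**
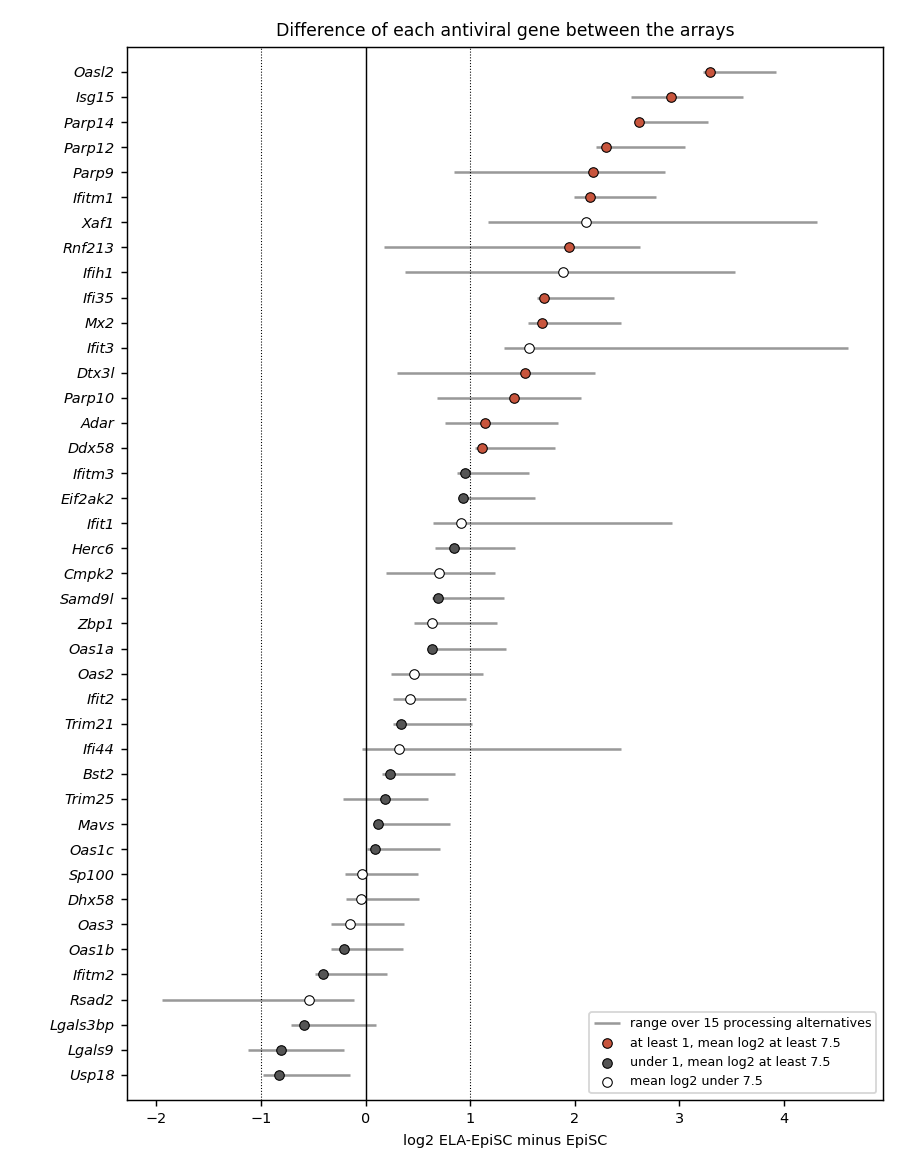
Difference of each detected antiviral gene, log2 ELA-EpiSC minus EpiSC (x axis), with grey lines for its range over 15 processing alternatives and dotted lines at -1 and 1. Red points were past the limit, grey points were not, and open points had a mean level under 7.5. Oasl2, Isg15, Parp14 and Parp12 stayed beyond 2 throughout, but all of these except Isg15 had 1 probe, so a change of probe could not move them. The lines of Parp9, Rnf213, Dtx3l, Parp10 and Adar reach below 1, each at its lowest with the second brightest probe.

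Comparing probes of 1 gene showed how far each value rests on the probe. The 19 genes with several detected probes formed 21 pairs of the brightest and a dimmer probe. In 19 of the 21 the signs matched, and in 13 the differences lay within 0.5 of each other. In the 5 pairs that were more than 1 apart, of Ifih1, Parp9, Dtx3l (2 pairs) and Rnf213, the dimmer probe had a mean level under 7.5. The same held for 13 of all 21 pairs. With the second brightest probe in place of the brightest, the count of genes past the limit in ELA-EpiSC was 8 rather than 13. Adar, Ddx58, Dtx3l, Parp10, Parp9 and Rnf213 left it and Oas1a entered. Genes with 1 detected probe kept that probe, so Oasl2, Parp14, Parp12, Ifi35 and Mx2 could not leave. Isg15 and Ifitm1 were the only others of the 13 to stay, Ifitm1 on a probe shifted by 1 base. Ddx58 left on its level alone, since the difference of its dimmer probe was 1.08.

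**Figure D3:**
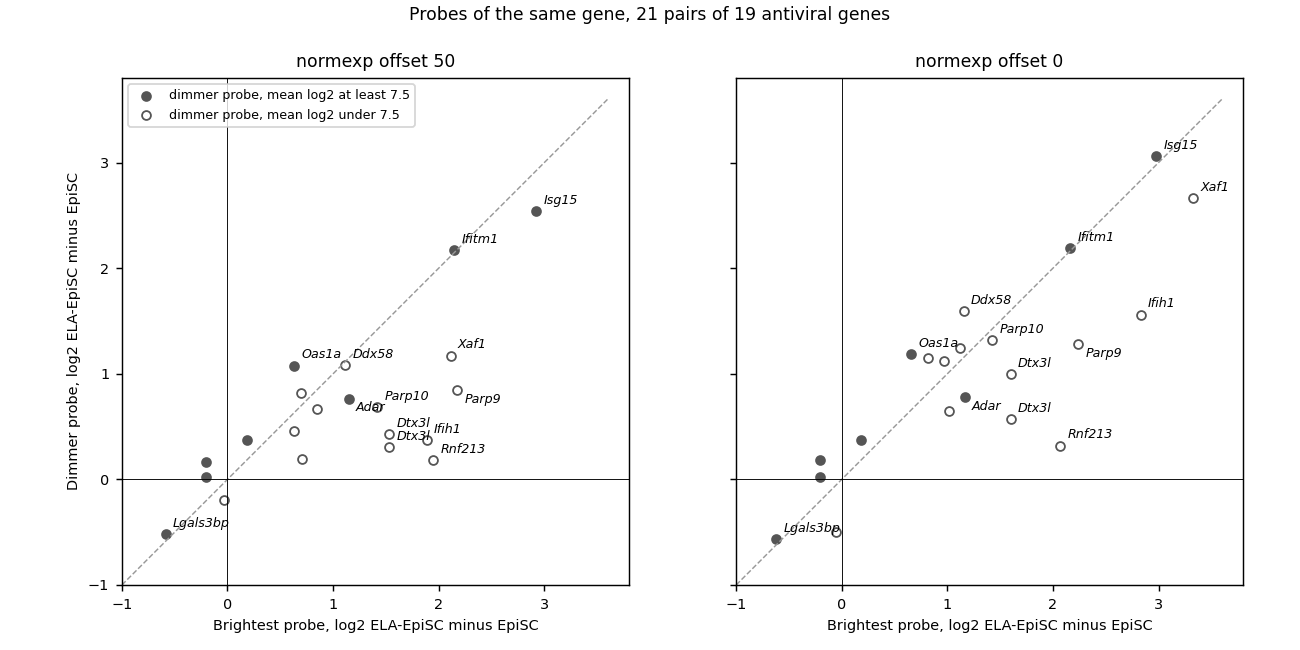
Log2 difference of the brightest probe (x axis) against that of a dimmer probe of the same gene (y axis), for 21 pairs of 19 antiviral genes, with a background offset of 50 (left) and 0 (right). The dashed line marks equal differences. Parp10 moved to near the line without the offset (1.43 and 1.32), while Rnf213 stayed far from it (2.07 and 0.32).

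The ISRE matches were set beside the differences. Of the 13 genes past the limit, 9 had a promoter to search, and Isg15 was the only one of the 9 with the motif. Of the other 24 genes with a promoter, 9 held it. The 10 genes with a match were all detected and had a median difference of 0.16, from -0.81 (Lgals9) to 2.92 (Isg15). The 22 detected genes without a match had a median of 0.94, from -0.58 to 3.30. A gene without a match only lacks these letters in this window, and looser spellings or more distant sites were not searched.

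The interferon pathway around these genes was read from lists that, like the genes themselves, were put together with results of these arrays known. Of 16 interferon ligand genes with a probe, 11 were detected, at levels of at most 8.08, and all 11 differed by less than 0.5. Ifnb1, Ifng, Ifne, Ifna4 and Ifna16 were not detected on either array. All 6 receptor genes were detected and none passed the limit, with Ifngr1, a chain of the interferon gamma receptor, at 0.60 and Ifnar1, of the type I receptor, at -0.31. Under spike-in scaling Ifngr1 reached 1.30 and Ifnar1 turned to 0.38. Of the 11 ligand genes only 2 had a mean of at least 7.5, and none passed the limit under any alternative.

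The parts of the signal that carry interferon inwards did not move as 1 block. The kinase genes of the type I signal were level, with 11.56 and 11.60 for Jak1 and 8.73 and 8.70 for Tyk2. Stat2 had 10.61 and 10.36, and Irf9 had 10.21 and 9.91, and both differences turned positive under spike-in scaling, and that of Stat2 also under median scaling. Irf7, the factor that amplifies interferon production, was detected on neither array. Irf1, which can drive antiviral genes without interferon, had 12.39 and 14.78, a difference of 2.38, although a dimmer Irf1 probe gave 0.18. Jak2, a kinase of the interferon gamma receptor, had 9.84 and 11.12, a difference of 1.28. Of 8 negative regulators, Socs1, the feedback inhibitor of JAK kinases, was past the limit with 9.12 and 10.65, a difference of 1.53, and Socs3 stood just outside at 0.98. None of the 10 genes of the induction pathway with a sufficient level passed the limit. Their differences ran from -0.86 (Ticam1) to 0.64 (Myd88). Ticam1 reached -1.03 with the processed signal and Myd88 1.33 under spike-in scaling.

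Other interferon-stimulated genes, from a list of 84 that holds none of the 43, gave 65 detected, of which 41 had a mean of at least 7.5. Of these, 11 were higher in ELA-EpiSC past the limit and 1 in EpiSC, and the median of the 65 was 0.21. Over 18 alternatives, some with another limit, this count of 11 ran from 0 to 21. The 21 came under spike-in scaling, which also raised the share of all genes past the limit towards ELA-EpiSC from 4.54% to 20.1%. The 11 were Rtp4 (2.36), Ifi27 (2.23), Isg20 (2.08), Nmi (2.01), Cd274 (1.75), Sp140 (1.46), Lgals8 (1.31), Tor3a (1.25), Helz2 (1.22), Pnpt1 (1.10) and Ly6e (1.10). Other probes gave 0.58 and 1.07 for Sp140, 0.83 for Tor3a, 2.63 for Isg20 and 1.07 for Pnpt1. Nmi encodes the partner of IFI35, and its 7.30 and 9.31 lay beside the 8.29 and 10.00 of Ifi35. The gene higher in EpiSC was Ifi27l2a, with 12.58 and 10.86, a difference of -1.71, against the 2.23 of its relative Ifi27.

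**Figure D4:**
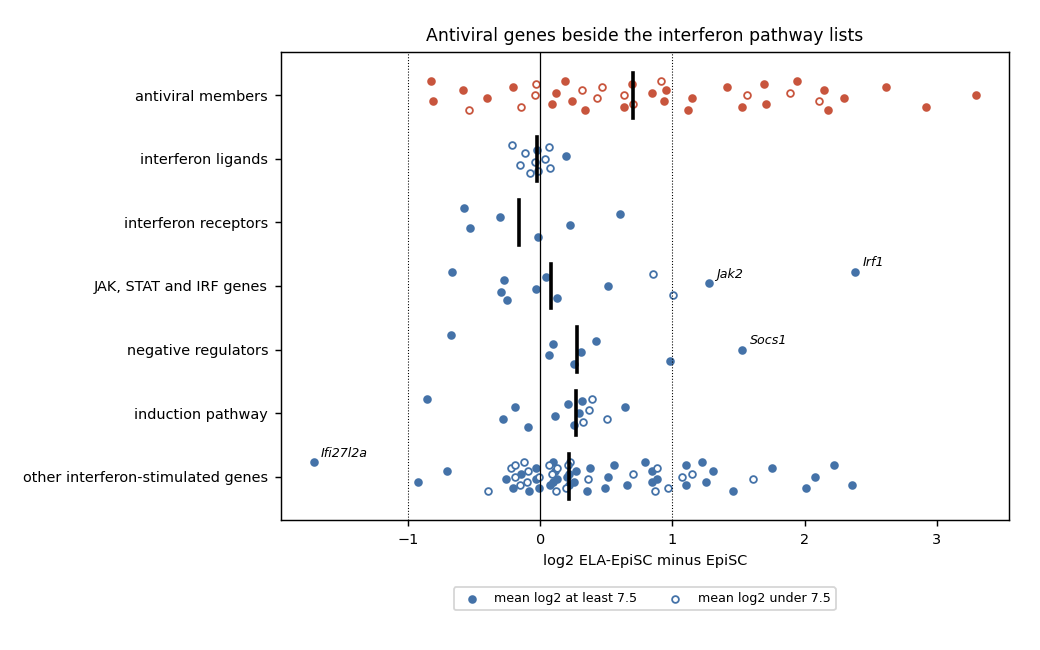
Log2 ELA-EpiSC minus EpiSC (x axis) of every detected gene of the antiviral set (red) and of 6 interferon pathway lists (blue). Black bars are medians, dotted lines mark -1 and 1, open points have a mean level under 7.5, and vertical scatter within a row carries no value. The 11 ligand genes reach from -0.21 to 0.19, whereas the antiviral genes reach from -0.83 to 3.30.

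Markers of other cells that express antiviral genes were read beside these results. Of 11 macrophage and blood markers with a probe, 8 were detected, 3 of them with a mean of at least 7.5, and none passed the limit. Lyz2, Fcgr1 and Spi1 were not above background on either array, and Ptprc, which all white blood cells carry, had 6.48 and 6.60, near the lowest detected signal. The summed linear level of the detected blood markers was 9020 in EpiSC and 11440 in ELA-EpiSC. Itgam, the brightest with 12.72 and 13.09, weighed most in it, and its other probes gave differences of -0.38 and -0.11. Cd68 had 10.03 and 10.55, and Csf1r had 9.55 and 9.58. Part of the visceral endoderm and fibroblast markers differed between the groups. Of 10 visceral endoderm markers, all detected, 8 had a mean of at least 7.5. Of these 8, 4 (Hnf4a, Ttr, Amn and Gata4) were higher in EpiSC past the limit, against 4.46% of all genes. Ttr was detected on the EpiSC array alone. The summed level of the 10 was 59806 and 32480. Apoa1, detected on the EpiSC array alone, differed by -2.02 at a mean below 7.5. Sox17 differed by -0.93, Gata6 by -0.57 and Foxa2 by -0.44, and Afp (0.21) and Cubn (0.11) lay the other way. Of 10 fibroblast markers, 9 were detected and 6 had a mean of at least 7.5. Of these 6, 2, Col1a1 (3.72) and Pdgfra (1.77), were higher in ELA-EpiSC past the limit, against 4.54% of all genes. The summed level of the 9 was 4567 and 7486, and Lum was above background on neither array. The median of the 9 was 0.43. Col3a1 differed by 1.88 at a mean just below 7.5, Pdgfrb by 0.50, Twist1 by 0.43 and Postn, detected in ELA-EpiSC alone, by 0.17. Col1a2 was at 0.08, Thy1 at 0.05 and Dcn at -0.33. The part of these other cells in the antiviral differences was not tested.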

How the data were processed

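RNA of both groups was hybridized to Agilent mouse arrays of 62976 spots, both on 1 slide and in 1 scan. The authors deposited scanner files with spot intensity on a linear scale, not normalized, written by Feature Extraction 10.7.3.1 per the file headers (9.1 in the submitters' processing notes), with mm9 probe positions, and a log2 table made, by their methods, with background correction and quantile normalization. The labels give 50 ng of RNA labelled per array, less than the amount in the authors' methods.

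From mean spot signal and median local background, normexp with an offset of 50 was fitted on all spots with limma 3.58.1 in R 4.3.3. Control spots and outlier spots (158 in EpiSC, 117 in ELA-EpiSC) were dropped, arrays were quantile normalized, and log2 spots averaged per probe. Detection needed the well-above-background flag on at least a share of 0.5 of a probe's spots. Quantile normalization hides a shift shared by all genes. For a gene detected on 1 array, the fold was taken over the dim value or the lowest detected signal, whichever was higher (5.89 in EpiSC, 6.11 in ELA-EpiSC). Detected blood, endoderm and fibroblast levels were summed on the linear scale. Probes were compared by blastn. A pathway gene is not reported here. The script was tested on simulated data. The members and lists, and the rule that names every member and the pathway genes past the limit, were chosen with earlier results of these data known. The number of arrays, 1 per group, limits the precision.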

Additional observations from a re-analysis of the deposited data

How the results depend on the processing

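The counts were recomputed under 18 alternatives, and the differences of single genes under up to 15, those of the pathway and marker genes included. No gene past the limit changed sign in any of them, and the median of all detected genes moved to 0.51 under spike-in scaling and to -0.18 under scaling to the 75th percentile. The 13 genes higher in ELA-EpiSC past the limit became 8 with the second brightest probe, where genes with 1 detected probe kept it. They became 3 at a limit of 2.5, and 11 to 19 in the others. The 19 came under spike-in scaling, where 20.1% of all genes passed towards ELA-EpiSC and 1.54% towards EpiSC. The count higher in EpiSC, 0, became 1 (Lgals9) without the offset and with the processed signal, and 2 (Lgals9 and Usp18) at a limit of 1.5-fold. The median of the 41 genes, 0.71, was 0.92 in the deposited log2 values, 0.87 after median scaling, 0.90 with no background correction, 1.00 at an offset of 0, 0.89 at an offset of 16, 1.07 with the processed signal, 1.33 under spike-in scaling and 0.46 with the second brightest probe. The second brightest probe at an offset of 0, an alternative chosen after seeing the data, gave 8 genes higher in ELA-EpiSC, 1 higher in EpiSC and a median of 0.95. The cause of these moves was not tested. No paired analysis was possible because a group was 1 array. Without an offset dim genes moved most, Ifit3 to 3.15, Xaf1 to 3.33 and Ifit1 to 2.09. Signals near background, as for the interferon ligands, give no precise difference.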
